A study of Mus musculus with 4 samples.

Results

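Pou5f1, Nanog, Sox2, Sall4, Gata6, Gata4, Sox17, Fgf4, Fgfr1 and Fgfr2 are the genes with which the inner cells of the mouse embryo choose between epiblast and primitive endoderm. They were taken by symbol from the authors' comparison of mouse morulae that had received an siRNA against Nr1h2 (siNr1h2) with morulae that had received a non-targeting siRNA (siNT). Nr1h2 encodes the oxysterol receptor LXRβ. All 10 were among the 13658 genes of the authors' deposited table. Wild-type fertilized eggs were injected at the 1-cell stage with 4 to 5 pL of 100 µM siRNA pool and grown in M16 medium to the morula, and polyadenylated RNA was measured in 2 samples per group. The labels give neither the strain nor the number of embryos in a sample, and do not say whether the samples of a group came from separate injections, so the p-values cover only how far these 4 samples spread, which may be technical in part. The deposited table holds no value per sample: each gene has 1 mean over the 4 samples and 1 fold change, and the depth of each sample is unknown.

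In the morula and early blastocyst the inner cells first carry factors of both fates. NANOG and SOX2 then mark the epiblast, which forms the embryo proper, while GATA6, followed by SOX17 and GATA4, marks the primitive endoderm, which lines the yolk sac. Cells of the epiblast fate secrete FGF4, and neighbouring cells read it through FGFR1 and FGFR2 and the RAS-ERK cascade, which favours GATA6 over NANOG. POU5F1 (OCT4) and SALL4 act in inner cells of both fates.

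The siRNA target was reduced: Nr1h2 in the authors' deposited table was 5.03 times lower after siNr1h2 than after siNT (95% interval 3.89 to 6.50), which leaves 19.9% of the siNT level. None of the 10 specifier genes passed the test at an adjusted p of 0.05 (DESeq2 Wald test of the authors, Benjamini-Hochberg adjustment). Among all 12069 genes with an adjusted p, 1.98% were called (1.52% lower and 0.456% higher), so a count of 0 among 10 is near the background. At an unadjusted p under 0.05 there was 1 specifier, Pou5f1, against 13.3% of all genes. Of the 10 log2 fold changes 7 lay above 0 and 3 below, beside 50.6% above 0 among all genes with an adjusted p. The median of the 10 was 0.13, beside 0.00 over all genes with an adjusted p. The median size of the change, regardless of sign, was 0.22 on the log2 scale for the specifiers and 0.21 for all genes with an adjusted p.

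**Figure D1:**
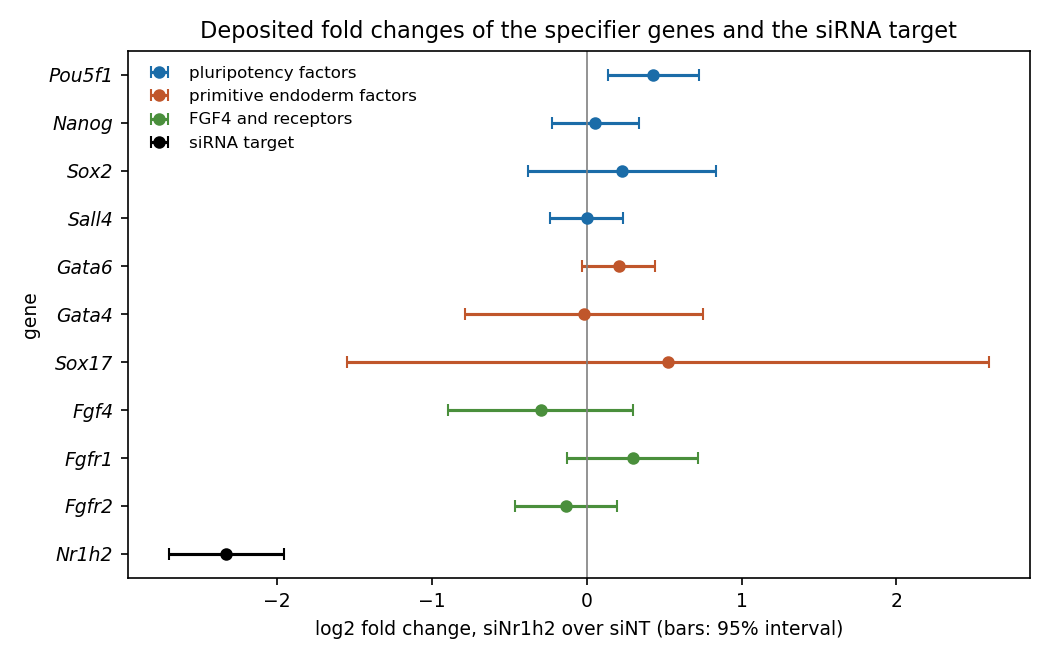
Log2 fold change of siNr1h2 over siNT for the 10 specifier genes and Nr1h2 (points, authors' deposited table), with 95% intervals from the deposited standard errors (bars), coloured by role. The interval of Pou5f1 lies above 0 before adjustment over genes, those of the other 9 specifiers hold 0, and Nr1h2 stands apart at -2.33.

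A liver X receptor binds DNA as a dimer with a retinoid X receptor, at repeats of the hexamer AGGTCA or close variants. The promoters of Pou5f1 and Nanog are shown as those of 2 core pluripotency factors whose windows hold hexamers of both kinds searched. Both are from RefSeq (GRCm38.p6) and run 5′ to 3′ on the gene's strand, from 250 bases before the start of the transcript to 50 after it. Capitals mark AGGTCA and GGGTCA on either strand, so that TGACCT and TGACCC are these hexamers on the opposite strand.
Pou5f1, chr17:35505782-35506081, plus strand: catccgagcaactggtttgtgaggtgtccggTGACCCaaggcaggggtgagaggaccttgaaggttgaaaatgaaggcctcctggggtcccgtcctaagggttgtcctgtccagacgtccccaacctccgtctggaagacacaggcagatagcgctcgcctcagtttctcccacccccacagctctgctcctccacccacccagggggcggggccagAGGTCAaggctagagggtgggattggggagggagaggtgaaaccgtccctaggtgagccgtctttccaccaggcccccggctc
Nanog, chr6:122707239-122707538, plus strand: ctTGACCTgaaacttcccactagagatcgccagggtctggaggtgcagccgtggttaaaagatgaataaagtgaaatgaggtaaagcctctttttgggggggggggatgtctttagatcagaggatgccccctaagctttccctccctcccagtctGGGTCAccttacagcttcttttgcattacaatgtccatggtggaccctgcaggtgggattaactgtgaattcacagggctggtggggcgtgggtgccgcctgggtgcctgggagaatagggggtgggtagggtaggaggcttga
In the Pou5f1 window AGGTCA begins 33 bases before the start site and the reversed GGGTCA 219 bases before it. In the Nanog window GGGTCA begins 94 bases and the reversed AGGTCA 248 bases before the start. The Sox2 window, not shown, holds the reversed AGGTCA 244 bases before its start, and the window of the alternative Pou5f1 start holds neither hexamer. Promoter windows were found for 5 of the 10 genes (Sox2, Nanog, Fgfr2, Fgf4 and Pou5f1, 7 windows in all, since Nanog and Pou5f1 have alternative starts), and 4 of the 7 held at least 1 of these hexamers, against 27.5% of all 32851 windows; the Nanog windows overlap and share a GGGTCA. An exact DR4 element, AGGTCA followed by any 4 bases and a second AGGTCA in the same direction, was searched on both strands. It was in 0 of the 7 windows and in 5 of all windows, and at that rarity 0 of 7 says little. DR4 elements with a variant hexamer were not searched. A match is only a run of letters, and binding at these windows was not analysed here.

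Pou5f1, the POU-domain factor on which the inner cell mass depends, had the largest Wald statistic of the 10. Its level was 1.35 times that of siNT (95% interval 1.10 to 1.65, log2 fold change 0.43 ± 0.15, SE) at a mean normalized count of 680 in the authors' deposited table. Read as a ratio of group means, the deposited mean and fold correspond to about 579 normalized counts in siNT and 781 in siNr1h2. The adjusted p was 0.117 (DESeq2, authors' deposited table), so the gene did not pass. A gene of this precision needed a change of 1.41 times to be called, because the smallest Wald statistic among called genes was 3.30. Mouse Pou5f1 and Nanog both have processed pseudogenes, and how reads that match several copies were counted is not given in the sources used here, so both values are uncertain to that extent.

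Nanog, the homeodomain factor that marks the epiblast, and Sall4, a zinc finger partner of POU5F1 and NANOG, were close to equal in both groups. The fold of Nanog was 1.04 (95% interval 0.856 to 1.26, log2 fold change 0.06 ± 0.14) at a mean normalized count of 2181 in the authors' deposited table. That of Sall4 was 1.00 (0.850 to 1.18, log2 fold change 0.00 ± 0.12) at a mean of 2590 in the authors' deposited table. At the deposited scaling these intervals leave out a change of 1.5 times in either direction for both genes. Both intervals rest on the normal distribution and 2 samples per group. Sox2, the HMG-box partner of POU5F1, had the least precise value of the 4 pluripotency factors. It stood at 1.17 times siNT (0.769 to 1.78, log2 fold change 0.23 ± 0.31, adjusted p = 0.817 by DESeq2) at a mean normalized count of 90.8 in the authors' deposited table, where only a change of 2.03 times would have been called.

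Gata6, the earliest of the primitive endoderm factors, had the highest mean normalized count of the 10, 3621, and the smallest standard error. Its fold was 1.15 (95% interval 0.980 to 1.36, log2 fold change 0.20 ± 0.12) in the authors' deposited table, with an adjusted p of 0.458 by DESeq2. At the deposited scaling this interval leaves out decreases beyond 1.02 times and increases beyond 1.36 times. It rests on the normal distribution and 2 samples per group. Centred on ribosomal protein genes, the log2 fold change of Gata6 was 0.10, so these bounds depend on the scaling. Gata4, a later factor of the same lineage, lay at 0.987 times siNT (0.580 to 1.68) at a mean normalized count of 49.2 in the authors' deposited table. Sox17, the HMG-box factor of the endoderm, was near the lower limit of detection with a mean normalized count of 9.16. Its fold of 1.44 had an interval from 0.342 to 6.05 in the authors' deposited table, and a change of 11.2 times would have been needed for a call. For Sox17 no difference was detectable at this level.

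Fgf4, the ligand, was the lowest of the 10 log2 fold changes at -0.30 ± 0.30 in the authors' deposited table, a level 0.813 times that of siNT (95% interval 0.537 to 1.23, mean normalized count 86.9). The receptor Fgfr1, which the inner cells share, stood at 1.23 times (0.917 to 1.65, log2 fold change 0.30 ± 0.22, mean 204) in the authors' deposited table. Fgfr2, the receptor enriched in the primitive endoderm and trophectoderm, stood at 0.911 times (0.726 to 1.14, log2 fold change -0.13 ± 0.17, mean 512). None of these 3 passed (DESeq2 adjusted p = 0.742, 0.589 and 0.796 in the same order, authors' deposited table). Whether the ligand and its receptors differed from each other in their change was not tested, because the table holds no values per sample.

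Across the 10 genes, the 95% interval lay within 2 times in either direction for 9, Sox17 being the exception, against 68.0% of all genes with an adjusted p. It lay within 1.5 times for 4, Nanog, Sall4, Gata6 and Fgfr2. Precision followed the mean count, as the plot of fold change against mean count shows. In whole morulae, fewer cells of a fate and less RNA per cell cannot be told apart.

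**Figure D2:**
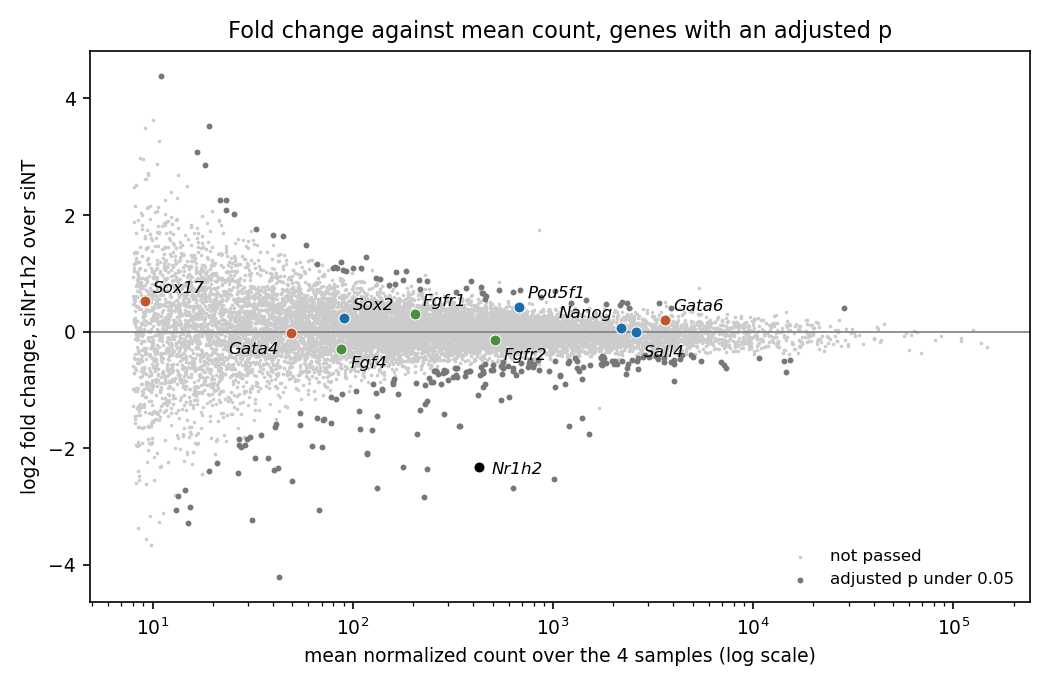
Log2 fold change of siNr1h2 over siNT against the mean normalized count over the 4 samples (log scale) for the 12069 genes with an adjusted p. Light grey points did not pass, dark grey points had an adjusted p under 0.05, and the specifiers are coloured by role (blue, pluripotency; orange, primitive endoderm; green, FGF4 and receptors; black, Nr1h2). The 10 specifiers lie within the light grey cloud.

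To compare levels between genes, the mean normalized count was divided by the length of the longest APPRIS principal transcript in GENCODE vM21. On this scale Gata6 (1120 per kb) and Nanog (987 per kb) were the highest, above 90.0% and 89.1% of 11554 genes respectively. Sall4 (511 per kb) and Pou5f1 (499 per kb) followed, then Fgfr2 (154 per kb). Sox2 (44.2 per kb), Fgfr1 (40.6 per kb) and Fgf4 (28.7 per kb) lay below the median of 68.3 per kb. Gata4 (14.6 per kb) and Sox17 (2.93 per kb), the later endoderm factors, were the lowest, the level per length of Gata6 being 76.8 times that of Gata4. Nanog exceeded Sox2 22.3 times and Fgfr2 exceeded Fgfr1 3.80 times in level per length. With all annotated exons joined as the length, Nanog (973 per kb) came before Gata6 (556 per kb) and Fgf4 before Fgfr1, and the other 6 places were the same. These levels are means over both groups with no spread between samples, so neighbours in the order were not tested, and genes with a like pattern across samples could not be looked for.

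**Figure D3:**
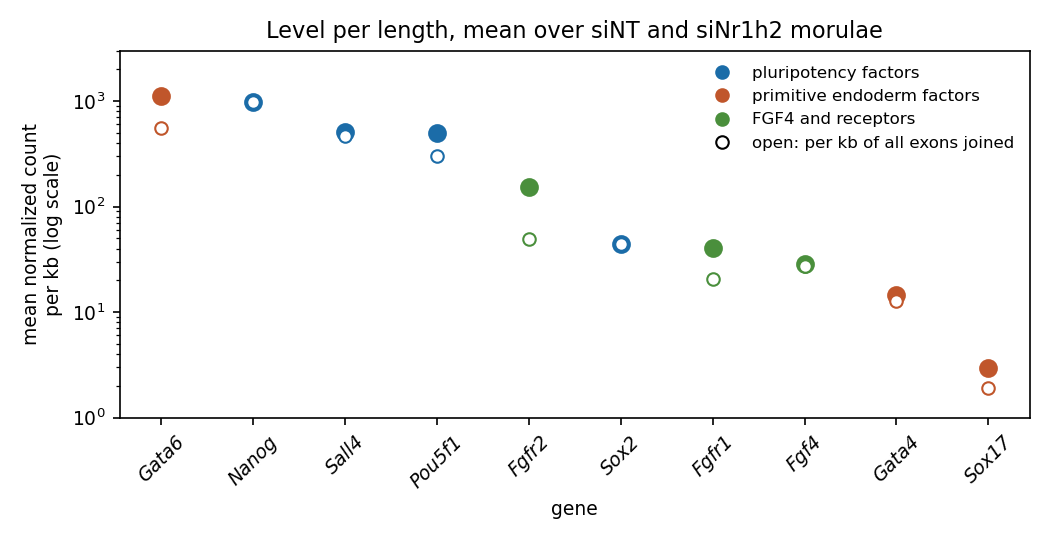
Mean normalized count per kb over the 4 samples (log scale) for the 10 specifiers, in descending order; filled points use the principal transcript, open points all exons joined. Levels run from 1120 per kb for Gata6 to 2.93 per kb for Sox17.

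Around the specifiers, 7 lists of lineage and pathway genes held 119 of the genes measured, each counted once, of which 112 had an adjusted p. By the authors' deposited adjusted p, 7 of them were lower and 0 higher (6.25% of the 112, against 1.98% of all genes), and their median log2 fold change was -0.06. The lists were drawn up with earlier results of these data known, so this share is not independent evidence. The split of calls over all genes depends on the scaling: it was 184 lower and 55 higher as deposited, 142 and 82 when centred on genes whose mean reached 500 normalized counts, and 448 and 36 when centred on ribosomal protein genes.

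Among 25 further epiblast and naive pluripotency genes measured here, 3 were lower, 20 missed the threshold and 2 lacked an adjusted p. The lower genes were Klf17, a Krüppel-like factor of the early embryo (1.70 times, adjusted p = 0.00489), Tcl1, an activator of AKT (2.82 times, adjusted p = 0.00545), and Tdgf1, the NODAL co-receptor (1.44 times, adjusted p = 0.0489), all by DESeq2 in the authors' deposited table. The abundant genes Pramel7 and Fbxo15 stood at log2 fold changes of -0.34 ± 0.11 and -0.25 ± 0.11 and did not pass. Nr0b1, a nuclear receptor without a DNA-binding domain of the usual kind, stood at 2.43 ± 1.10. It was too scarce for an adjusted p (7.78 normalized counts on average, authors' deposited table). Of the 25 genes 11 lay above 0 and 14 below, and the median of the 23 tested genes of this list was -0.12.

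Of 18 further primitive endoderm genes measured here, 1 was lower, 14 missed the threshold and 3 lacked an adjusted p, with a median log2 fold change of -0.06 over those with an adjusted p. The lower gene was Dab2, an endocytic adaptor that works with megalin in the endoderm (1.35 times, adjusted p = 0.0155 by DESeq2, authors' deposited table). Lrp2, which encodes megalin and is also expressed in trophectoderm, stood at -0.29 ± 0.11 and did not pass. Creb3l2, at a mean normalized count of 15.3, stood at -1.72 ± 0.72 in the authors' deposited table and did not pass.

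None of the other genes of FGF signalling passed (DESeq2, authors' deposited table). Of 19 other ligands, receptors, heparan sulphate enzymes and adaptors, 8 lay above 0 and 11 below, with a median log2 fold change of -0.14. Ptpn11, the phosphatase SHP2 that links receptors to RAS, stood at 0.36 ± 0.16, and the heparan sulphate enzymes Ext1 and Ndst1 at -0.76 ± 0.36 and -0.67 ± 0.37 in the authors' deposited table. The 13 genes of the RAS-ERK cascade had a median of 0.07, and the RAF kinase gene Araf stood at -0.25 ± 0.15 and Rps6ka3 at -0.36 ± 0.23 in the authors' deposited table. Transcripts that respond to ERK signalling are a readout of the pathway downstream of FGF4. Of 14 such genes 7 lay above 0 and 7 below, with a median of 0.06. Many were scarce, with a median mean normalized count of 41.3, and Etv4 and Egr1 of this list were not among the genes measured. To be called, Dusp6 needed a change of 2.99 times, Etv5 1.62 times and Spred1 1.56 times, so modest changes could have been missed. The ERK phosphatase Dusp6 stood at -0.93 ± 0.48, the ETS factor Etv5 at 0.39 ± 0.21 and the feedback inhibitor Spred1 at -0.35 ± 0.20 in the authors' deposited table. At an unadjusted p under 0.05 the FGF-ERK lists together gave 2 of 46 genes, against 13.3% of all genes with an adjusted p.

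Trophectoderm is the outer fate of the morula and the alternative to the inner cells. Of 17 trophectoderm genes measured here, 3 were lower, 13 missed the threshold and 1 lacked an adjusted p. Of the 17, 8 lay above 0 and 9 below, with a median of -0.13 over those with an adjusted p. Dppa1, a gene first grouped with pluripotency factors (2.17 times, adjusted p = 6.44e-10), Ptges, a prostaglandin synthase (1.42 times, adjusted p = 0.0123), and Krt8, a keratin of the outer epithelium (1.42 times, adjusted p = 0.0211), were lower by DESeq2 in the authors' deposited table. Krt18, the keratin partner of Krt8 (-0.27 ± 0.13) and the water channel gene Aqp3 (0.51 ± 0.17) had log2 fold changes that did not pass. Nor did the transcription factors Cdx2 (0.01 ± 0.23), Eomes (0.12 ± 0.26), Gata3 (-0.11 ± 0.17), Tfap2a (-0.29 ± 0.39), Tfap2c (0.15 ± 0.14) and Tead4 (0.06 ± 0.16). Among 17 POU, SALL, GATA and SOX relatives of the specifiers none passed and 3 lacked an adjusted p. Sox15, the most abundant of them with a mean normalized count of 4093, stood at -0.26 ± 0.16, and the scarce Sox4 and Sox11 at 1.33 ± 0.74 and -0.91 ± 0.64 in the authors' deposited table.

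**Figure D4:**
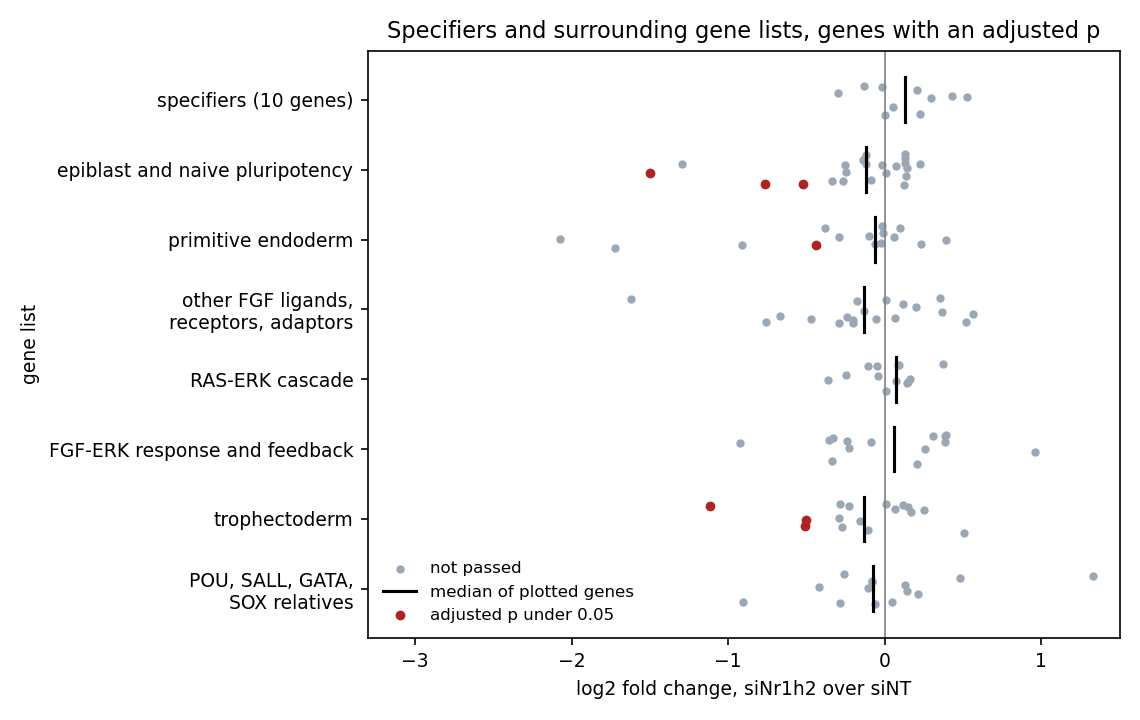
Log2 fold change of siNr1h2 over siNT for the 10 specifiers and 7 surrounding gene lists, each point a gene with an adjusted p, spread vertically for clarity. Red points had an adjusted p under 0.05 and black bars are medians of the plotted genes; red points occur in the epiblast, primitive endoderm and trophectoderm lists, all below 0.

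Markers of other cells were looked for in 3 lists. Of 14 cumulus and granulosa cell markers 3 were measured, with a summed mean normalized count of 34.5, against 10024 for the 10 specifiers. None of 8 sperm markers was among the genes analysed here. Of 8 blood and immune markers 3 were measured, and Cd74, the class II invariant chain, made up most of their sum of 356, with a level per length of 232 per kb that lies above that of Fgfr2. By the authors' deposited table Star stood at -0.74 ± 0.50 and Cd74 at 0.42 ± 0.19, neither past the threshold. The library kit keeps no strand information, so reads where genes overlap cannot be assigned by strand. In GENCODE vM21 an opposite-strand gene shares 16.8% of the exon bases of Sox17 (Gm37587), 14.1% of Pou5f1 (Gm19553) and 9.50% of Sall4 (Gm14261). Gm37587, Gm19553 and Gm14261 were not among the genes measured, so their levels are unknown. At most 3.04% of the exon bases of Gata6, Fgfr1 and Fgfr2 are shared with another gene.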

How the data were processed

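The samples were 2 siNT and 2 siNr1h2 morula samples, grouped by their titles. Libraries were made with SMART-Seq v4 and Nextera XT, per the labels' protocols. The submitters' processing notes name STAR, HTSeq 0.12.4, RSEM, Cufflinks 2.2.1, edgeR, DESeq2 and the build mm9, with no role or order; which annotation was used is not given in the sources used here. As for the values, the 1 deposited table is the authors' comparison, per the file headers. It gives the authors' mean normalized count (a signal value, counts over size factors), log2 fold changes and their standard errors as deposited, Wald statistics (a deposited score), and p-values, raw and adjusted, as the authors computed them. Recomputing showed the statistic as fold change over standard error and the adjusted p as Benjamini-Hochberg over 12069 genes; the other 1589 genes, with means up to 8.00, have none. The table holds 0 columns of per-sample values, so no test per gene was run again.

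Folds are powers of 2 with 95% intervals from the normal distribution and the deposited standard errors, computed with Python 3.11.15, pandas 2.3.3 and scipy 1.17.1. Recomputed adjustments were tested on simulated data. Transcript lengths came from GENCODE vM21 (GRCm38), which is not the build in the notes, so levels per kb are approximate. The text names the 10 specifiers, Nr1h2 and, per list, called genes and the 3 others with the smallest p; the values of 2 genes that this rule names are not reported here. The genes and lists were chosen with earlier results of these data known. Alternatives covered the threshold, the adjustment, the count filter, the centring and a t distribution.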

Additional observations from a re-analysis of the deposited data

How the results depend on the processing

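Under 8 alternatives the specifiers gave 78 values, none past its threshold, and 75 kept their direction. The reversed values were Gata4 at 0.0186 (log2) when centred on genes whose mean reached 500 normalized counts, and Nanog at -0.0520 and Sall4 at -0.106 when centred on ribosomal protein genes; these centrings subtract -0.04 and 0.11. The adjusted p of Pou5f1 ran from 0.0729 to 1. With a minimum mean of 50, Gata4 and Sox17 had no value. Counts over all genes became 92 lower and 17 higher at a threshold of 0.01, and 270 lower and 125 higher at 0.1. They were 48 lower and 1 higher with Holm adjustment, and 448 lower and 36 higher when centred on ribosomal protein genes. Counts of lower genes in the surrounding lists, 7 as deposited, became 3 at 0.01, 8 at 0.1 and 1 with Holm adjustment. These counts were 10 when centred on ribosomal protein genes, and 6 when centred on genes whose mean reached 500 normalized counts. Adjustment over all genes with a p also gave 6 lower list genes. With a t distribution on 2 degrees of freedom the counts of lower genes were 0 in the lists, and 0 lower and 0 higher over all genes. The design is too small to pass the threshold this way, so this says nothing about stability. No paired analysis was possible because the table holds no values per sample, and for the same reason leaving out a replicate was not run. The depth of each sample is unknown; for Sox17, Gata4, Sox2 and Fgf4, which had the lowest mean counts of the 10, the deposited standard errors were so large that changes under 2 times could not be called.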
